A study of Mus musculus with 48 samples.

Results

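The 6 genes described here, of 48321 rows in the table, are X-linked and were followed in mouse embryonic stem cells that lack Mll3 and Mll4 or carry catalytically deficient forms of them. They were taken by symbol: Rhox5, Rhox6 and Rhox9 of the reproductive homeobox (Rhox) cluster, Esx1, Zfp36l3 and Plac1. Rhox5, Rhox6, Rhox9 and Esx1 encode homeobox transcription factors, whereas Zfp36l3 and Plac1 do not, so the 6 share placental expression and not a protein family. All cells were the male R1 line of strain 129SV, kept in serum-free medium with LIF and inhibitors of MEK and GSK3 and plated on fibronectin before collection. The groups were wild-type cells (WT), cells with a double knockout of Mll3 and Mll4 (dKO), and cells with both enzymes catalytically deficient (dCD), with 3 polyA RNA-seq libraries each. The labels give no clone, no edited exon and no word on whether replicates were separate cultures, so p-values measure the spread between libraries, which may be technical, and a clone cannot be told apart from its genotype. The genes were proposed with earlier results of these data known.

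Mll3 (Kmt2c) and Mll4 (Kmt2d) place monomethylation on histone H3 lysine 4, chiefly at enhancers. Rhox genes form a cluster of homeobox genes on the X chromosome that is expressed in testis, ovary and placenta and is held silent in most other tissues, in part by DNA methylation. Rhox5, first described as Pem, is the member best known in embryonic stem cells and extraembryonic tissue. Rhox6 and Rhox9, first described as Psx1 and Psx2, are close paralogs found in placenta and germ cells. Esx1 is a paired-like homeobox gene of the placenta, Zfp36l3 is a rodent member of the tristetraprolin family of RNA-binding proteins that speed mRNA decay in placenta, and Plac1 encodes a trophoblast protein of the cell surface.

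The 250 bases before the RefSeq starts are shown because the 6 genes were all highest in the same line, and because methylation of CG dinucleotides is a known control of Rhox genes. A window was matched by symbol for 4 of the 6 genes, and none is printed for Rhox6 and Rhox9. Sequences are from RefSeq on GRCm38.p6, while the table was made on mm9. They run 5′ to 3′ on the strand of the gene, with each CG in capitals.
Rhox5, chrX:37754358-37754607, plus strand: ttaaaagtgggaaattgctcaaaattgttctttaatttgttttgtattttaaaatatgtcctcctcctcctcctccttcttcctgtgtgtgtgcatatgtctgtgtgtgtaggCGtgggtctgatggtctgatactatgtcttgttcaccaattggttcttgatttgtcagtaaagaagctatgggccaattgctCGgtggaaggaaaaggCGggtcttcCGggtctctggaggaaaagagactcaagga
Zfp36l3, chrX:53776395-53776644, minus strand: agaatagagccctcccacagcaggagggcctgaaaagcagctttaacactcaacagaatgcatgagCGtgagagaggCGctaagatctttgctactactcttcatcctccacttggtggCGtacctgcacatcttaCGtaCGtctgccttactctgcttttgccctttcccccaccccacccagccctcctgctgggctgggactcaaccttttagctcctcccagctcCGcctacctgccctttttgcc
Esx1, chrX:137120327-137120576, minus strand: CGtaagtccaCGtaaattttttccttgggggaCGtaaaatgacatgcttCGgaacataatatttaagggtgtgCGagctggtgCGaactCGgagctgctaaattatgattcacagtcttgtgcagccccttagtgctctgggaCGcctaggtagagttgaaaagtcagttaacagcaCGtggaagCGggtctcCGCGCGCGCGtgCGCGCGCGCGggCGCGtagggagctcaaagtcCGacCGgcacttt
Plac1, first start, chrX:53114406-53114655, minus strand: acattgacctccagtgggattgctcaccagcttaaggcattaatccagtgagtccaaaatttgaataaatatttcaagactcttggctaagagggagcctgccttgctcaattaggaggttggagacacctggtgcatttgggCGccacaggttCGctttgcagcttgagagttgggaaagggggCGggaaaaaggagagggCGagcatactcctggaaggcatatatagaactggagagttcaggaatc
Plac1, second start, chrX:53240111-53240360, minus strand: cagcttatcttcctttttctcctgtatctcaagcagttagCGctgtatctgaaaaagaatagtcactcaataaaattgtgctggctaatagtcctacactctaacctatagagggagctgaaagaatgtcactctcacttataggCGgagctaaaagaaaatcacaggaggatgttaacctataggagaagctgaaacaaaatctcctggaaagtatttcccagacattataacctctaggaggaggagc

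Esx1 held 24 CG dinucleotides, more than 88.0% of 32851 such windows. The other windows were near or below the median of 6, with 6 in Zfp36l3, 4 in Rhox5, and 4 and 2 at the first and second start of Plac1. Windows were searched on both strands for 4 motifs. The ETS motif, CCGGAA, occurred once, 33 bases before the start of Rhox5, and was present in 12.0% of all windows. The motif of GATA factors, AGATAA, occurred once, in the window of the second Plac1 start, and was present in 9.99% of all windows. The TEAD motif, GGAATG, was in none of the 5 windows shown and in 12.6% of all windows. The AP-2 motif, GCCNNNGGC, was likewise in none of the 5 and in 13.7% of all. The RNA data do not tell which Plac1 start was used, and no chromatin data were analysed here.

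Levels are given in TPM (transcript abundance scaled to gene length and library total), and can be compared between genes. Multiplied by gene length, the deposited values fell on whole reads, so read numbers could be recovered, from 21090624 to 56249770 reads per library. Of the targeted genes, Kmt2c fell from 21.1 ± 1.22 TPM in WT to 7.66 ± 0.292 TPM in dKO (SD, n = 3). Kmt2d was higher in dKO, at 82.9 ± 2.21 TPM against 66.4 ± 1.08 TPM in WT. Since the edited parts are not given, the Kmt2d total does not check the labels. Embryonic stem cell markers were present in every line: the summed level of 10 markers, among them Pou5f1, Nanog and Sox2, was 14909 to 15406 TPM in WT, 7675 to 7745 TPM in dKO and 11162 to 11503 TPM in dCD. Of the 10, 1 was higher and 8 were lower in each mutant line than in WT. For comparison, the whole set of 16179 genes in the test split into 43.4% higher and 28.4% lower for dKO. For dCD the split was 28.9% higher and 29.5% lower.

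Rhox5 was the most abundant of the 6 genes and the only one with a high level in WT. Its level was 155.1, 142.6 and 149.6 TPM in the WT libraries, 171.1, 155.8 and 157.8 TPM in dKO, and 401.0, 388.6 and 401.1 TPM in dCD. In bulk RNA, fewer cells of a type and less RNA per cell cannot be told apart. The dCD libraries lay far above all others, while the lowest dKO library was just above the highest WT library. Mean TPM was 2.66 times higher in dCD than in WT (log2 fold change on the log2(TPM + 1) scale 1.41, SE 0.0398, limma adjusted p = 1.54e-09). In dKO the mean was 1.08 times that of WT (log2 fold change 0.11, limma adjusted p = 0.0245), a call that was lost under 6 of 17 alternatives. It was lost with voom on recovered reads (0.09, limma adjusted p = 0.0835), with median-ratio scaling (0.0170, limma adjusted p = 0.707), and without WT replicate 2 (0.08, limma adjusted p = 0.0979) or dKO replicate 1 (0.07, limma adjusted p = 0.0915).

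Rhox6 and Rhox9 were close to absent in WT, low in dKO and well expressed in dCD. Rhox6 measured 1.65, 0.723 and 0.467 TPM in WT, on 13, 9 and 3 reads. It measured 10.2, 9.41 and 9.92 TPM in dKO and 74.5, 80.3 and 76.9 TPM in dCD. The 3 lines did not overlap, and dCD stood 81.5 times above WT and 7.84 times above dKO in mean TPM. The pooled-read ratio to WT had an exact 95% interval for counting error of 55.8 to 127.7 in dCD and 6.96 to 16.5 in dKO. Of 25 WT reads, 13 came from WT replicate 1, and without it dCD stood 129.9 times and dKO 16.6 times above WT in mean TPM. The fitted difference was 5.37 on the log2 scale for dCD against WT (SE 0.170, limma adjusted p = 3.05e-09) and 2.52 for dKO against WT (SE 0.170, limma adjusted p = 3.03e-07).

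Rhox9 measured 0.310, 0.326 and 0.126 TPM in WT, 2.34, 2.32 and 1.99 TPM in dKO, and 25.4, 23.6 and 23.4 TPM in dCD. Again no library of one line reached the range of another. The mean was 95.1 times higher in dCD and 8.72 times higher in dKO than in WT, where only 18 reads were recovered over 3 libraries. From pooled reads, the 95% interval for counting error (exact) was 55.5 to 148.7 for dCD over WT and 4.95 to 14.1 for dKO over WT. The fitted difference from WT was 4.33 on the log2 scale in dCD (SE 0.0856, limma adjusted p = 1.31e-10) and 1.36 in dKO (SE 0.0856, limma adjusted p = 1.80e-07). Rhox6 and Rhox9 are paralogs, and the treatment of reads that match both is not given in the sources used here, so the split between them is uncertain.

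**Figure D1:**
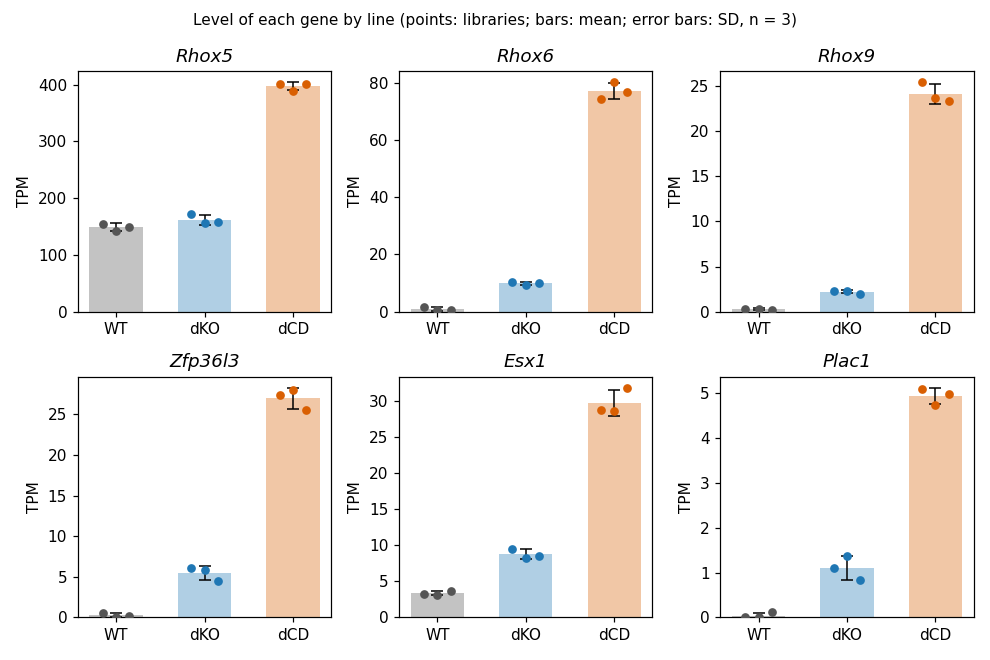
TPM of each gene in the 9 libraries, with 1 panel per gene and its own linear axis; points are libraries, bars are means and error bars are the SD (n = 3 per line). In every panel the dCD libraries lie highest, from 4.74 to 5.09 TPM for Plac1 up to 388.6 to 401.1 TPM for Rhox5, and dKO lies between WT and dCD.

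Esx1, the homeobox gene outside the Rhox cluster, was detectable in WT. Its level was 3.30, 3.15 and 3.64 TPM in WT, 9.57, 8.25 and 8.59 TPM in dKO and 28.8, 28.7 and 31.9 TPM in dCD, with no overlap between lines. Mean TPM was 2.62 times higher in dKO (a difference of 1.17 on the log2 scale, SE 0.0687, limma adjusted p = 1.10e-07) and 8.85 times higher in dCD (a difference of 2.82, SE 0.0687, limma adjusted p = 5.21e-10).

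The RNA-binding protein gene Zfp36l3 had 16 reads in the WT libraries together. It measured 0.548, 0.104 and 0.201 TPM in WT, 6.05, 5.86 and 4.52 TPM in dKO and 27.3, 28.0 and 25.6 TPM in dCD. All dKO libraries exceeded all WT libraries and all dCD libraries exceeded both. Pooled reads gave a ratio to WT of 21.3 in dKO, with an exact 95% interval for counting error of 12.9 to 37.6, and of 103.7 in dCD, with an interval of 63.7 to 181.8. WT replicate 1 held 10 of the 16 WT reads. Without it the ratios were 40.0 and 195.3, outside those intervals, and without WT replicate 2 they were 14.0 and 68.2. On the log2(TPM + 1) scale the difference from WT was 2.34 in dKO (SE 0.131, limma adjusted p = 7.17e-08) and 4.46 in dCD (SE 0.131, limma adjusted p = 1.86e-09).

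Plac1, which encodes the trophoblast surface protein, was the lowest of the 6 genes in each line. In WT it had 1 read in all, with 0, 0 and 0.113 TPM. It measured 1.11, 1.38 and 0.826 TPM in dKO, on 41 reads, and 5.09, 4.74 and 4.98 TPM in dCD, on 259 reads. With 1 read behind WT the ratio is barely bounded: pooled reads gave 182.8 for dCD over WT, with an exact 95% interval for counting error of 32.5 to 7249, and 41.3 for dKO over WT, with an interval of 7.00 to 1669. Without WT replicate 3, WT had 0 reads and no ratio; without WT replicate 1 the ratios were 129.1 and 29.1, and without WT replicate 2 they were 97.7 and 22.04. Between the mutant lines the ratio was 4.43 (interval 3.18 to 6.32). Against WT the fitted difference was 2.52 on the log2 scale in dCD (SE 0.114, limma adjusted p = 3.75e-08) and 1.01 in dKO (SE 0.114, limma adjusted p = 1.65e-05).

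The order of the 6 genes by level was partly the same in each line. Rhox5 came first and Plac1 last in all 3. In dCD the order between them was Rhox6, Esx1, Zfp36l3 and Rhox9, and neighbours in this order did not overlap. In dKO it was the same, except that the ranges of Rhox6 (9.41 to 10.2 TPM) and Esx1 (8.25 to 9.57 TPM) overlapped. In WT, Esx1 ranked above Rhox6, and the ranges of Rhox6, Zfp36l3 and Rhox9 overlapped with their neighbours below 2 TPM.

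Of the 6 genes, 6 passed the test as higher in dKO than in WT, where 43.4% of the 16179 tested genes did, and 5 were higher at least 2-fold, where 6.01% were. In dCD, 6 of 6 were higher than in WT (28.9% of tested genes), all at least 2-fold (4.62%). A test of all 3 pairs placed WT lowest, dKO between and dCD highest for 6 of 6 genes, an order that 3.59% of tested genes showed; where the Rhox5 call in dKO was lost, 5 of 6 did. These counts carry a limit: Rhox6, Rhox9, Zfp36l3 and Plac1 passed the minimum of 1 TPM in 3 libraries only through mutant libraries, since at most 1 WT library reached it (Rhox6). Among genes that passed, these 4 of the 6 were bound to be higher in a mutant line, so the counts are given as a description. All 6 were also called in dCD with no minimum.

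The fitted fold changes understate the change of low genes. With voom on recovered reads the log2 fold change of Plac1 was 4.26 in dKO and 6.42 in dCD, that of Zfp36l3 was 4.51 and 6.84, and that of Rhox9 was 2.98 and 6.44. With a pseudocount of 0.1 TPM in place of 1, Plac1 was at 3.20 and 5.29. The 2-fold call of Plac1 in dKO fell just short under median-ratio scaling (0.98), quantile normalization (0.99) and without WT replicate 1 (0.99), WT replicate 2 (0.99) or dKO replicate 2 (0.92). The adjusted p of Plac1 in dKO was at most 0.000278 over its 16 alternatives.

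The mutant lines were also set against each other, which asks whether losing the proteins and losing their activity differ. All 6 genes were lower in dKO than in dCD by at least 2-fold on the log2(TPM + 1) scale, where 7.36% of tested genes were. The difference on the log2 scale was -2.97 for Rhox9 (SE 0.0856, limma adjusted p = 6.66e-10), -2.85 for Rhox6 (SE 0.170, limma adjusted p = 1.53e-07) and -2.12 for Zfp36l3 (SE 0.131, limma adjusted p = 1.96e-07). It was -1.65 for Esx1, -1.50 for Plac1 and -1.29 for Rhox5. The share of called genes that were higher depended on the scaling: in this contrast it was 61.0%, and 49.8% with median-ratio scaling; in dKO against WT it was 60.4% and 50.5%.

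**Figure D2:**
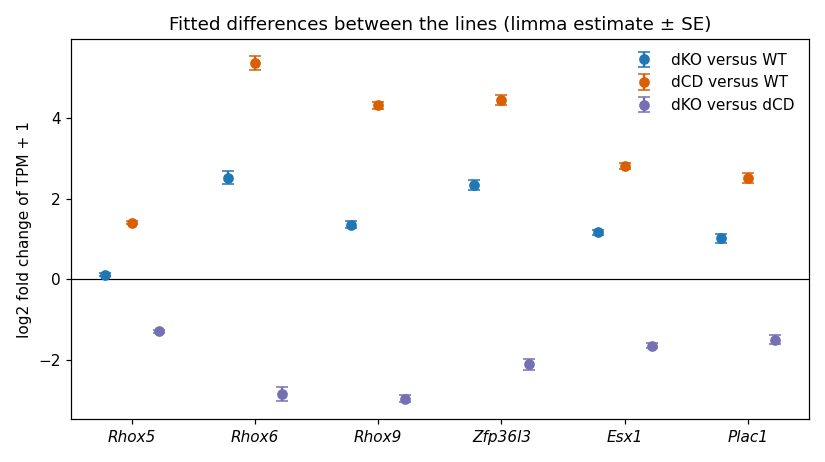
Log2 fold change on the log2(TPM + 1) scale for each gene in the 3 contrasts; points are limma estimates and error bars are ± 1 SE. The 6 genes lie above 0 in dCD against WT, from 1.41 for Rhox5 to 5.37 for Rhox6, and below 0 in dKO against dCD; Rhox5 in dKO against WT lies at 0.11.

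The rest of the Rhox cluster was mostly silent. The table held 39 other Rhox rows, of which 14 were at 0 in all 9 libraries, 17 stayed under 1 TPM and 8 reached 1 TPM in some library. Rhox13, near the far end of the cluster from Rhox1 and known from germ cells, measured 6.01, 6.02 and 5.02 TPM in WT, 12.2, 11.1 and 12.5 TPM in dKO and 18.6, 19.4 and 17.2 TPM in dCD. It followed the order of the 6 genes with a smaller range (log2 fold change 0.95 in dKO, limma adjusted p = 9.72e-07, and 1.54 in dCD, limma adjusted p = 6.06e-08).

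Rhox1, at the other end of the cluster, had another order. It measured 4.51, 4.68 and 5.52 TPM in WT, 3.36, 2.98 and 3.13 TPM in dKO and 9.29, 7.13 and 7.41 TPM in dCD. It was thus lowest in dKO (log2 fold change -0.50, limma adjusted p = 0.00107) and highest in dCD (0.59, limma adjusted p = 0.000521).

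The Rhox2 copies were low in every line. Their 8 rows, Rhox2a to Rhox2h, are near-identical, so they were summed: 0.434, 0.493 and 0.185 TPM in WT, 2.07, 4.51 and 4.83 TPM in dKO and 1.65, 1.27 and 2.74 TPM in dCD. Mutant libraries were above WT, and those of dKO and dCD overlapped. Rhox2a, the 1 copy that was tested, was called higher in both (limma adjusted p = 5.74e-05 in dKO and 0.00172 in dCD), on 3 reads in WT, 42 in dKO and 35 in dCD. It too passed the minimum only through mutant libraries, so this direction was largely set by the filter. Pooled reads gave ratios over WT of 14.1 (exact 95% interval for counting error 4.50 to 71.0) in dKO and 8.24 (2.60 to 41.9) in dCD. The tested pseudogenes Rhox7-ps2 and Rhox2-ps passed in neither line. Rhox10, Rhox2d and Rhox2g reached 1 TPM in some library but were not tested. Rhox10 averaged 0.554 TPM in WT, 1.38 TPM in dKO and 0.786 TPM in dCD.

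**Figure D3:**
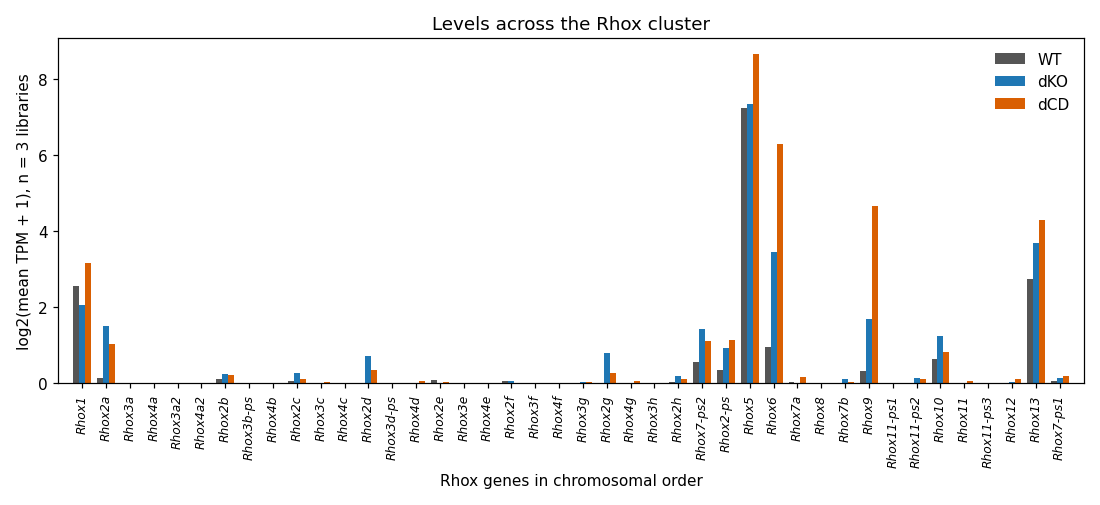
Mean level of each of the 42 Rhox rows, as log2(mean TPM + 1) over 3 libraries per line, in the gene order of the GRCm38 reference table. Bars are high at Rhox5 in each line and at Rhox6 and Rhox9 mainly in dCD, Rhox1 is lowest in dKO, and 14 rows have no bar because they were at 0.

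The nearest tested genes on each side were described to see whether the change was shared along the chromosome. Gene order was taken from the GRCm38 table, in which 88.0% of tested genes had a position. Next to Esx1, Nrk, an X-linked kinase gene known from placenta, measured 1.69, 1.72 and 1.60 TPM in WT, 2.66, 2.37 and 2.49 TPM in dKO and 17.0, 16.3 and 16.1 TPM in dCD. Its log2 fold change was 2.71 in dCD (limma adjusted p = 3.01e-10) and 0.39 in dKO. On the other side of Esx1, Fam199x rose by 1.37 in dKO and 0.45 in dCD, and Zcchc18 rose in dKO (1.45) and was at 0.15 in dCD (limma adjusted p = 0.274). Platr21, on the far side of Nrk, fell in dKO by 0.82 on the log2 scale.

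Around Plac1, the purine salvage gene Hprt rose by 0.16 in dKO and 0.14 in dCD. C430049B03Rik, next to Plac1, rose by 0.68 and 1.88. On the other side, Fam122b rose by 0.38 and 0.71, and Mospd1 rose by 0.30 in dCD and was at 0.05 in dKO (limma adjusted p = 0.529). Beside Zfp36l3, 1700013H16Rik was at -0.35 in dKO (limma adjusted p = 0.0645) and rose by 1.78 in dCD, and Xlr rose by 0.96 and 0.68. Gm14584 rose by 0.61 in dKO and was at 0.25 in dCD (limma adjusted p = 0.0623). Gm14593 was called higher in dCD on 35 reads, with 1.25, 6.67 and 2.41 TPM, against 1 read in WT. It entered the test only through the 3 dCD libraries, so that call was set by the filter. Zbtb33, beyond Rhox13, rose by 0.99 in dKO and 0.36 in dCD. Counted once and without the 6 genes, 16 neighbours were tested. In dKO 10 were higher and 1 lower, and in dCD 11 were higher and 0 lower. Among the 521 X-linked genes in the test, the share called higher was 53.0% in dKO and 40.5% in dCD. The share called lower was 21.5% and 21.1%. Over the 16179 genes of the test, these shares were 43.4% and 28.9% for higher, and 28.4% and 29.5% for lower. Whether the neighbours differ from the X chromosome was not tested. Of the 16 neighbours, 7 reached 1 TPM in fewer than 3 WT libraries and so needed mutant libraries to pass the minimum. Of these 7, 3 were higher in dKO and 4 in dCD.

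The X chromosome as a whole was described beside the 6 genes, which it includes. Of 521 tested X-linked genes, 13.2% were higher at least 2-fold in dKO, against 5.98% of 13712 genes on other chromosomes, and 9.6% against 4.6% in dCD. Within the X chromosome, Rhox6, Zfp36l3 and Rhox9 ranked 1, 2 and 3 by log2 fold change in dCD, Esx1 ranked 7, Plac1 10 and Rhox5 34. In dKO, Rhox6 ranked 5, Zfp36l3 8, Rhox9 34, Esx1 44, Plac1 67 and Rhox5 297. These ranks are a description without a test.

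Other placental products gave a mixed picture. Of 30 listed genes, 12 were tested. In dKO 6 were higher and 4 lower (43.4% and 28.4% of all tested genes), with a median log2 fold change of 0.40 against 0.10 over all tested genes. In dCD 9 were higher and 2 lower (28.9% and 29.5% of all tested genes), with a median of 0.95 against -0.01. The simple epithelial keratins Krt8 and Krt18 rose by 3.17 and 4.29 in dCD and Krt7 by 2.87. The imprinted retrotransposon-derived gene Peg10 rose by 2.51 in dKO and 2.50 in dCD, and the mutant lines differed by 0.01 (limma adjusted p = 0.907). The gap junction gene Gjb2, on 0.0911 ± 0.0225 TPM in WT, measured 2.92 ± 0.455 TPM in dKO and 7.30 ± 0.845 TPM in dCD (SD, n = 3). Phlda2, an imprinted placental growth regulator, and Rtl1 fell, by 2.59 and 1.24 in dKO and by 0.96 and 0.51 in dCD. The placental hormones Prl3d1, Prl3b1, Prl2c2 and Prl4a1 and the spongiotrophoblast genes Tpbpa and Tpbpb were at 0 in all 9 libraries. Of the 12 tested, Psg23, Gjb2, Plac8 and Krt7 needed mutant libraries to pass the minimum, with 2 of them higher in dKO and 3 in dCD. Of the 15 trophoblast factors, 4 also needed mutant libraries, among them Cdx2 and Dlx3.

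Of 15 tested trophoblast transcription factors, 7 were higher and 4 lower in dKO (43.4% and 28.4% of all tested genes). Their median in dKO was 0.08 against 0.10 over all tested genes, so the dKO split was near that of all genes. In dCD 9 were higher and 4 lower (28.9% and 29.5% of all tested genes), with a median of 0.35 against -0.01. Cdx2, Hand1, Gcm1 and Dlx3, which needed mutant libraries to pass the minimum, were all 4 called higher in both lines. The filter favoured this direction for them, so the split in each line is a description. Gata3 measured 3.34 ± 0.197 TPM in WT, 3.01 ± 0.417 TPM in dKO and 21.1 ± 1.22 TPM in dCD (SD, n = 3; log2 fold change 2.34 in dCD). Gata2 rose by 1.81 in dKO and 2.05 in dCD, and Dlx3 by 0.56 and 2.20. Tfeb was lower in dCD by 0.59, and Ascl2 fell by 2.38 in dKO and 0.61 in dCD. Cdx2 was low throughout, at 0.572 ± 0.157, 1.20 ± 0.113 and 4.08 ± 0.612 TPM, and Eomes passed in neither line.

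Markers of other cell types moved with the 6 genes in part. All 10 trophoblast markers also belong to the lists of placental products or trophoblast transcription factors above, so they are not further evidence. Of the 10, 7 were tested. In dCD 5 were higher and 1 lower (28.9% and 29.5% of all tested genes). In dKO 3 were higher and 2 lower (43.4% and 28.4% of all tested genes). Their summed level was 73.5 to 79.4 TPM in WT, 43.4 to 47.5 TPM in dKO and 112.9 to 114.5 TPM in dCD. Tpbpa and Prl3d1 were at 0 and Elf5 averaged under 0.1 TPM in every line. Of 10 primitive endoderm markers, whose lineage also expresses Rhox5, 9 were tested, 6 higher and 1 lower in dCD and 3 higher and 3 lower in dKO. They summed to 431.4 to 445.8 TPM in WT, 159.8 to 160.9 TPM in dKO and 765.3 to 796.3 TPM in dCD. Of these, Dab2 rose in both lines and Sparc and Col4a1 rose in dCD and fell in dKO. The 1 marker that was lower in dCD is not among those named. In the trophoblast and the primitive endoderm list, 3 tested markers each needed mutant libraries to pass the minimum. Those of the trophoblast list, Cdx2, Hand1 and Krt7, were all 3 higher in both mutant lines. Of Sox17, Dab2 and Foxa2 in the primitive endoderm list, 2 were higher in dKO and 3 in dCD. The filter favoured this direction for these genes, so the counts of higher markers are a description. The part of other cells in the levels of the 6 genes was not tested.

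Germ cell and feeder markers were followed in the same way, beside the same shares of all tested genes. Of 10 germ cell markers 5 were higher and 4 lower in dCD and 3 higher and 7 lower in dKO, and none averaged under 1 TPM in any line. They summed to 311.6 to 335.2 TPM in WT, 238.7 to 245.3 TPM in dKO and 326.8 to 337.1 TPM in dCD. Of 10 fibroblast and feeder markers 6 were tested, 5 higher and 1 lower in dCD and 4 higher and 2 lower in dKO. They summed to 669.5 to 710.5, 556.3 to 604.5 and 631.0 to 680.1 TPM, of which fibronectin (Fn1) made 500.0 to 690.6 TPM, and Lum averaged under 0.1 TPM in every line. In WT, Col1a2, Col3a1, Postn, Dcn and Prrx1 did so too, and 3 of the 6 tested needed mutant libraries to pass the minimum. These 3, Col1a1, Col1a2 and Col3a1, were all called higher in both lines, a direction that the filter favoured. The part of germ or feeder cells in the levels of the 6 genes was not tested either.

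Genes of DNA and H3K9 methylation were then examined. The list also holds Tet1, Tet2 and Tet3, which act against DNA methylation, so its counts are not a balance of silencing genes. Of the 18 genes, 6 were higher and 10 lower in dKO (43.4% and 28.4% of all tested genes), with a median of -0.13. In dCD 4 were higher and 7 lower (28.9% and 29.5%), with a median of -0.04. The de novo methylation cofactor Dnmt3l fell from 553.4 ± 22.6 TPM in WT to 4.16 ± 0.645 TPM in dKO, and to 308.7 ± 4.43 TPM in dCD (SD, n = 3). Uhrf1, which guides maintenance methylation, fell in both (by 0.58 and 0.69 on the log2 scale), as did the H3K9 methyltransferase gene Setdb1 (by 0.35 and 0.51), while Suv39h1 rose (2.28 and 1.19). No methylation was measured here.

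Germline genes known to be silenced by promoter methylation were split in dKO and mostly higher in dCD. Of 21 tested, 9 were higher and 11 lower in dKO (43.4% and 28.4% of all tested genes), with a median of -0.43. In dCD 17 were higher and 3 lower (28.9% and 29.5% of all tested genes), with a median of 0.66. Sohlh2 rose by 1.96 and 1.63 and Tex19.1 by 1.24 and 1.29. The tubulin gene Tuba3a fell in dKO by 2.50 and was higher in dCD by 0.14, and Rpl10l fell by 0.97 in dKO and rose by 1.54 in dCD. Stag3 was lower in both, by 1.17 and 0.66. Of the 21, 6 needed mutant libraries to pass the minimum, 5 of them higher in dKO and 6 in dCD.

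**Figure D4:**
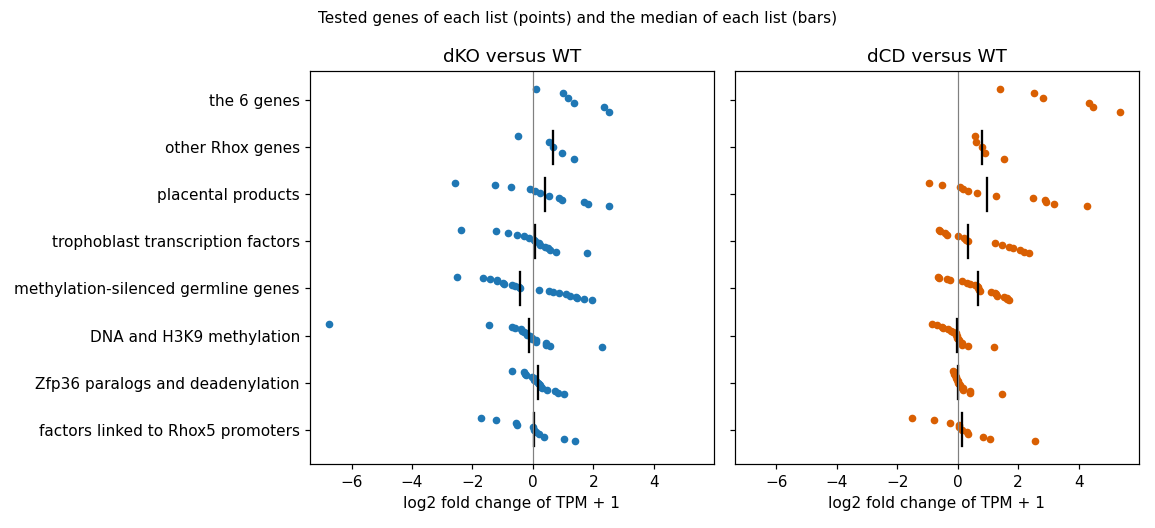
Log2 fold change on the log2(TPM + 1) scale of the 6 genes and of the tested genes of 7 lists, for dKO (left) and dCD (right) against WT; points are genes and bars are list medians. The 6 genes lie from 0.11 to 2.52 in dKO and from 1.41 to 5.37 in dCD, and single genes of the lists reach similar values, such as Peg10 at 2.51 in dKO and Krt18 at 4.29 in dCD.

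Of the paralogs of Zfp36l3, Zfp36 (tristetraprolin) had the same order of lines. It rose from 7.87 ± 0.339 TPM in WT to 14.6 ± 0.299 TPM in dKO and 23.6 ± 0.470 TPM in dCD (SD, n = 3; log2 fold change 0.82 and 1.47). Zfp36l2 rose in dKO by 1.03 and was at -0.04 in dCD (limma adjusted p = 0.366), and Zfp36l1 rose in dKO by 0.31 and was at 0.00 in dCD (limma adjusted p = 0.975). With the deadenylation and decapping genes, 10 of 17 were higher and 4 lower in dKO (43.4% and 28.4% of all tested genes). Their median in dKO was 0.17 against 0.10 over all tested genes. In dCD 6 were higher and 3 lower (28.9% and 29.5% of all tested genes), with a median of 0.00 against -0.01. The level of Zfp36l3 in dCD, 25.6 to 28.0 TPM, was just above that of Zfp36 (23.1 to 24.1 TPM) and below that of Zfp36l1 (65.2 ± 1.81 TPM) and Zfp36l2 (70.1 ± 1.17 TPM).

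Of the factors linked to the Rhox5 promoters, 11 of 12 were tested. In dKO 5 were higher and 4 lower (43.4% and 28.4% of all tested genes), with a median of 0.04. In dCD 6 were higher and 3 lower (28.9% and 29.5% of all tested genes), with a median of 0.12. The Ets family gene Ets1 rose from 0.615 ± 0.0624 TPM in WT to 2.31 ± 0.194 TPM in dKO and 8.57 ± 0.182 TPM in dCD (SD, n = 3), and passed the minimum only through mutant libraries. Elf1, of the same family, rose by 1.40 in dKO and 1.08 in dCD. Notch4 and Notch1 fell in both lines, by 1.71 and 1.23 in dKO and by 1.52 and 0.77 in dCD, and Notch2 rose by 0.39 and 0.85.

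Over the 9 libraries, the genes with the profile most like each of the 6 were found by Pearson's r of log2(TPM + 1), which is a description because 3 lines set most of it. Only tested genes whose line means spanned at least 1 on that scale were searched, and Gm, Rik and similar provisional symbols were skipped. Rhox5 was closest to Card10, Epn3 and Otx2 (r of 0.997 to 0.998). Otx2, a homeobox gene of early epiblast, averaged 21.9 TPM in WT, 23.9 TPM in dKO and 64.4 TPM in dCD. Rhox6 was closest to Trim47, Anxa3 and Cap2 (0.996 to 0.998), and Zfp36l3 to Anxa3, Plk2 and Nnat (0.996 to 0.997). Rhox9 was closest to Arsi, Dab2 and Creb3l1 (0.998 to 0.999), Esx1 to Fam43a, Clu and Fgfr2 (0.999 each), and Plac1 to Gab2, Arl4c and Ets1 (0.997 to 0.999). Among the 6 genes themselves r ranged from 0.886, between Rhox5 and Zfp36l3, to 0.995, between Rhox6 and Zfp36l3.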

How the data were processed

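PolyA RNA-seq of 9 libraries was used, and the other samples of the series were not analysed here. In the deposited table each gene has its length and a TPM value for every library. HISAT2, featureCounts and DESeq2 are named, with no version or role, and the build is mm9, per the submitters' processing notes; annotation and strand setting: not given in the sources used here. Reads of overlapping or antisense genes therefore cannot be told apart. TPM times length was a whole multiple of 1 step in each library (100% of values within 0.01), which gave the reads.

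Genes with at least 1 TPM in at least 3 of 9 libraries (16179 of 48321) entered limma 3.58.1 (R 4.3.3, trend) on log2(TPM + 1), all libraries in 1 fit, two-sided, Benjamini-Hochberg over all tested genes, threshold 0.05. The script was tested on simulated data. Intervals cover counting error only (scipy 1.17.1). Chromosome and order came from a GRCm38 table by symbol (34010 rows matched). The members and lists were chosen with earlier results of these data known. Named genes were the 6 genes, other Rhox rows reaching 1 TPM, the 2 nearest tested genes on each side, the 3 most alike genes, and up to 3 called genes per list and direction; Gjb2, Krt7, Rtl1, Cdx2, Eomes, Elf1, Dab2, Sparc, the hormone genes and the Zfp36 paralogs were in part named after their values were seen. Alternatives were another pseudocount, other minimums, 2 scalings, voom on recovered reads, fits of 2 groups, a replicate block and leaving out each library.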

Additional observations from a re-analysis of the deposited data

How the results depend on the processing

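Of 456 values recomputed under an alternative, 450 kept their direction and their side of the threshold, or, for counts, stayed within 1.5 times. The 6 others all concern Rhox5 in dKO against WT, which was no longer past the threshold with no filter on low values (log2 fold change 0.11, limma adjusted p = 0.0571), median-ratio scaling (0.0170), quantile normalization (0.0887) and voom on recovered reads (0.0898), and when WT replicate 2 or dKO replicate 1 was left out (range over 9 left-out libraries 0.0731 to 0.144). Leaving out a dCD library cannot move that value. Likewise, other minimums, fits of 2 groups and the replicate block cannot move the log2 fold change of a gene, nor can leaving out a line outside the contrast. There only the adjusted p could change, so 450 overstates how many values were free to move. The cause of the lost Rhox5 calls was not tested. Median-ratio scaling shifted the median log2 fold change of all tested genes by -0.09, while that of Rhox5 went from 0.11 to 0.0170. The shift is thus close in size to the Rhox5 value itself. Plac1 has no value at a minimum of 5 TPM. Same-numbered libraries showed no strong shared deviation (r from -0.05 to 0.04). This cannot tell whether they were prepared together, which the labels do not give. A replicate block gave 11533 called genes in dKO and 9273 in dCD against WT and kept 6 of 6 genes called in each. Depth limits the WT side of Rhox6, Rhox9, Zfp36l3 and Plac1, which rest on 25, 18, 16 and 1 reads.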
